A study of Mus musculus with 8 samples.

Results

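Intelectin 1 (Itln1) and mucosal pentraxin 1 (Mptx1) are described here, as secreted proteins of the gut lining that belong to families known for binding microbes. Every probe set annotated to either gene was taken. Each has 1 probe set, which makes 2 of the 12422 probe sets of the array and 2 of 8251 named genes. Both passed the filter on low values, as did 7453 probe sets in all. The genes were chosen by their intensities in these same arrays, whose difference between strains was known, so their strain values are a description with no test.

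RNA of total mouse colon was hybridised to 8 Affymetrix MG_U74Av2 arrays, 1 array for each pool of 4 or 5 animals, with 7 µg of RNA from each animal. Wild-type mice of strains C57BL/6J and C3H/HeJBir were set beside mice of the same strains with the targeted allele Il10tm1Cgn, which are named Il10-null. The gene codes for interleukin 10, a cytokine that damps inflammation, and the targeted allele is carried in all cells of the animal. Each of the 4 groups held 2 pools, called sample 1 and sample 2 after the labels. An age of 4 weeks is given for 1 pool, sample 2 of C57BL/6J wild type, and no label used here states the age of the other pools or the sex of the mice. Sample 1 of C3H/HeJBir Il10-null held 5 animals and the other C3H/HeJBir pools held 4, while each C57BL/6J pool held 5. Values are intensities in the arbitrary units of the array, already scaled to each other by the authors. Every p-value measures the spread between pools, not between animals. The 2 pools of each group were hybridised on different days, so that spread includes any difference between days.

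Intelectins are calcium-dependent lectins that recognise sugars displayed on microbial surfaces and rarely on mammalian cells, and in the intestine Itln1 is made by goblet and Paneth cells. Pentraxins are ring-shaped soluble pattern-recognition proteins, of which C-reactive protein (Crp) and serum amyloid P (Apcs) are the liver-derived members. Mptx1 is a member known from the intestinal mucosa. Intelectins are also known to be produced in response to the type 2 cytokines that accompany worm infection.

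Both genes lie on chromosome 1, with 105 genes between them in the RefSeq order of mouse assembly GRCm38.p6. Il10 lies on the same chromosome, with 736 genes between it and Itln1 and 842 between it and Mptx1. The start of each gene is given because the levels of both differed by strain and because Mptx1 has a close relative, Mptx2, whose start is nearly the same. The sequences are those of RefSeq for GRCm38.p6, which is C57BL/6J, and cover 250 bases before to 50 bases after the start site of 3 of 3 genes looked up. Itln1 is at chr1:171535245-171535544 on the minus strand, Mptx1 at chr1:174330268-174330567 on the plus strand and Mptx2 at chr1:173277707-173278006 on the minus strand. Capitals mark the only match to a searched motif in Itln1, and in the Mptx genes the longest run that their windows share.
Itln1: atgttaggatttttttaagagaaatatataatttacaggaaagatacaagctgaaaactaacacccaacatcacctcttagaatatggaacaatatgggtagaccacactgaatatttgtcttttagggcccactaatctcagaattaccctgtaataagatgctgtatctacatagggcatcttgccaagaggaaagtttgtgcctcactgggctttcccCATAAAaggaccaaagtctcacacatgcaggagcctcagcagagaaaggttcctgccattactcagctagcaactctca
Mptx1: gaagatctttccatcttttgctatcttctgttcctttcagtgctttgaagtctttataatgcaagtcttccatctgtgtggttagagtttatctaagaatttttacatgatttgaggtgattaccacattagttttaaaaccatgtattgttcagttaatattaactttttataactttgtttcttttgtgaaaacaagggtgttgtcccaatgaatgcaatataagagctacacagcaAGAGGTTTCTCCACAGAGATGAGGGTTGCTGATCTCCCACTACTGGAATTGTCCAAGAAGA
Mptx2: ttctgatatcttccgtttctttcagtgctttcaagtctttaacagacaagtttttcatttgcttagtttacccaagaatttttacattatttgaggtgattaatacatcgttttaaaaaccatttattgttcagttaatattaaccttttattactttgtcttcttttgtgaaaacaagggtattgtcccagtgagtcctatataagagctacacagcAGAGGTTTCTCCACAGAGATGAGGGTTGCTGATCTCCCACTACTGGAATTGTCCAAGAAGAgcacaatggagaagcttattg

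Aligned to each other, the starts of Mptx1 and Mptx2 were identical at 247 of 278 aligned bases (88.8%). The longest run shared by their windows is 61 bases and spans the start of Mptx1. It ends at the last base of the Mptx1 window, so the shared run could be longer. Mptx2 has no probe set of its own on this array, and no source used here says which transcript the Mptx1 probes lie in, so a reading of Mptx1 could include Mptx2. The same holds for Itln1: the RefSeq table of C57BL/6J lists a single intelectin gene, whose synonyms include Itln2, Itln3 and Itln5, while other mouse strains are known to carry further intelectin genes. Whether the Itln1 probes would read those, and which of them C3H/HeJBir carries, was not tested.

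Of 7 motifs searched on both strands, a few were found in these windows. The Itln1 window holds TTTATG, a core bound by the intestinal factors of the CDX family, on the minus strand starting 29 bases before the start site. TTTATG is in 12.1% of the 27025 promoter windows of the same length. The Mptx1 window holds TATAAG, a variant of the core promoter box bound by TBP, 29 bases before its start (in 7.58% of windows), and the Mptx2 window holds it 49 bases before its start. Mptx1 also holds the usual form TATAAA on the minus strand 198 and 82 bases before the start (in 14.2% of windows) and AGATAA, the GATA core, on the minus strand 162 bases before it (in 11.4%). TTCNNNGAA, the STAT form (8.47% of windows), the STAT6 form with 1 more base between its arms (6.99%), and CAAAGTCCA, an HNF4 form (0.477%), have no match in the 3 windows. None of the 7 motifs was found in both Itln1 and Mptx1. The TTTATG match reads CATAAA on the strand of Itln1, and box forms other than TATAAA and TATAAG were not searched. TATAAG was added to the search after the sequences were seen. These letters could be read for C57BL/6J alone, and the C3H/HeJBir sequence was not analysed here.

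Itln1 was low in every C57BL/6J pool and far higher in every C3H/HeJBir pool. In C57BL/6J wild type it read 63.5 in the sample 1 and 64.9 in the sample 2 pool, and in C57BL/6J Il10-null 49.9 and 44.6. In C3H/HeJBir wild type it read 1570.3 and 1844, and in C3H/HeJBir Il10-null 261 and 1037. The pools of the strains did not overlap, and the lowest C3H/HeJBir pool, sample 1 of Il10-null, was 4.02 times the highest C57BL/6J pool. The group means in ascending order were 47.2 ± 3.76 (SD, n = 2) in C57BL/6J Il10-null, 64.2 ± 1.01 in C57BL/6J wild type, 649 ± 549 in C3H/HeJBir Il10-null and 1707 ± 193 in C3H/HeJBir wild type. The pools of neighbouring groups in that order did not overlap, but the SD of the C3H/HeJBir Il10-null pair was 549 against a mean of 649.

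Mptx1 followed the same order of groups at a smaller strain difference. It read 690.5 and 738 in the sample 1 and sample 2 pools of C57BL/6J wild type, and 549 and 614 in those of C57BL/6J Il10-null. In C3H/HeJBir wild type it read 6034 and 5737, and in C3H/HeJBir Il10-null 2553 and 5389. The strains again did not overlap, and the lowest C3H/HeJBir pool was 3.46 times the highest C57BL/6J pool. Group means were 581 ± 46.3 (SD, n = 2) in C57BL/6J Il10-null, 714 ± 33.8 in C57BL/6J wild type, 3971 ± 2005 in C3H/HeJBir Il10-null and 5886 ± 209.5 in C3H/HeJBir wild type. Neighbouring groups did not overlap here either, although the upper C3H/HeJBir Il10-null pool came close to the wild-type pools.

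**Figure D1:**
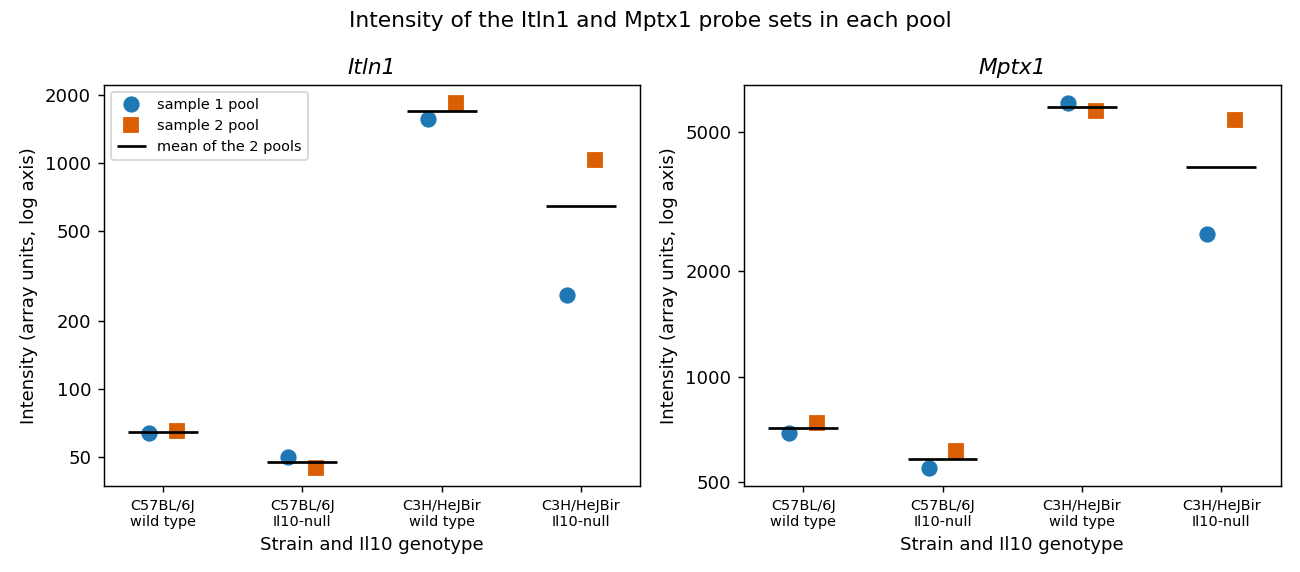
Intensity of the Itln1 (left) and Mptx1 (right) probe sets on a log axis in each pool, by strain and Il10 genotype, with circles for sample 1 pools, squares for sample 2 pools and a line at the mean of the 2 pools. All C3H/HeJBir pools lie above all C57BL/6J pools for both genes, with sample 1 of C3H/HeJBir Il10-null the lowest of its strain, at 261 for Itln1 and 2553 for Mptx1.

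On group means both genes differed more between strains than between Il10 genotypes, and their strain difference was known when they were chosen. Sample 1 of C3H/HeJBir Il10-null was an exception for Itln1. It stood at 16.6% of the sample 1 wild-type pool, and at 5.23 times sample 1 of C57BL/6J Il10-null. Among wild-type pools the mean of Itln1 was 26.6 times as high in C3H/HeJBir as in C57BL/6J, with ratios of single pools from 24.2 to 29.1. Among Il10-null pools it was 13.8 times as high, with single-pool ratios from 5.23 to 23.3. For Mptx1 the ratio was 8.24 in wild type (7.77 to 8.74) and 6.83 in Il10-null pools (4.16 to 9.82). In a linear model of log2(intensity + 11.07) fitted to all probe sets with limma, the strain difference of Itln1, C3H/HeJBir minus C57BL/6J, was 4.51 ± 0.53 (SE) in wild type and 3.20 ± 0.53 without Il10, and that of Mptx1 was 3.02 ± 0.34 and 2.65 ± 0.34. The pseudocount of 11.07 makes the log2 difference of Itln1 smaller than its ratio, since Itln1 is dim in C57BL/6J. Both strains were hybridised together on each of the 3 hybridisation days, and between the sample 2 pools, all of 1 day, the Il10-null difference was 4.24 for Itln1 and 3.11 for Mptx1. All 4 C3H/HeJBir pools lay above all 4 C57BL/6J pools for 199 of 7453 probe sets (2.67%), and Itln1 and Mptx1 are among these by the way they were chosen. Past the threshold were 0.403% of probe sets between strains in wild type (0.215% higher and 0.188% lower in C3H/HeJBir) and 0.295% in Il10-null (0.161% higher and 0.134% lower), from which nothing is read about the members.

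The comparison of Il10-null with wild-type pools within each strain asked what differed with the targeted allele. That difference is called the Il10 effect below. Sequence linked to the allele on chromosome 1 was not examined, so it cannot be told apart from the loss of Il10. Both genes read lower in the Il10-null pools of both strains, with no overlap between genotypes in any of the 4 comparisons, and no difference passed the test. All Il10-null pools lay below the wild-type pools for 13.6% of probe sets in C57BL/6J, for 12.0% in C3H/HeJBir and in both strains for 148 of 7453 probe sets (1.99%), against 169 (2.27%) with all above. Itln1 stood at 78.6% of wild type between the sample 1 and 68.7% between the sample 2 pools of C57BL/6J, and at 16.6% and 56.3% in C3H/HeJBir. Mptx1 stood at 79.5% and 83.2% in C57BL/6J, and at 42.3% and 93.9% in C3H/HeJBir. The deficits in C57BL/6J were alike in both sample numbers, while in C3H/HeJBir the sample 1 pools gave most of the deficit for both genes. The sample 1 pools were hybridised on day 1 (Il10-null) and day 2 (wild type), so genotype and day cannot be told apart between them. All sample 2 pools were hybridised on day 3.

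**Figure D2:**
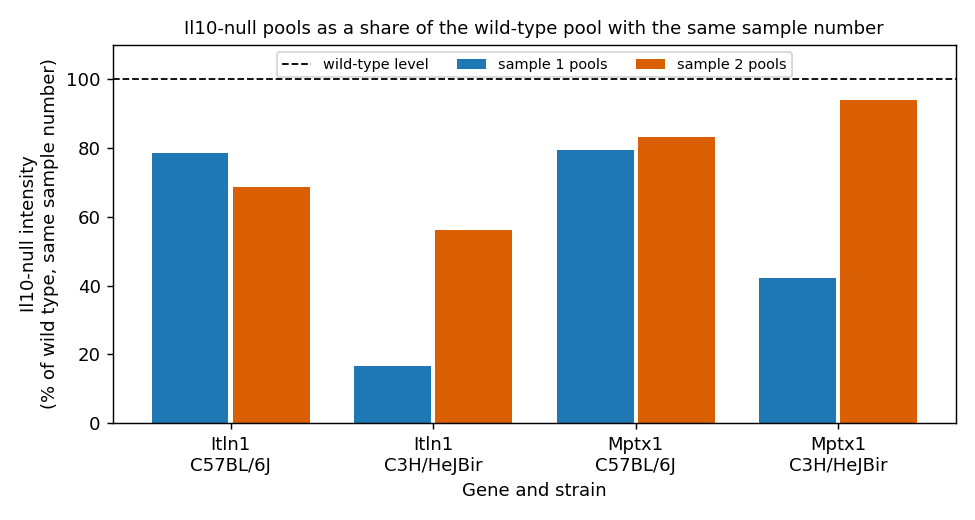
Intensity of each Il10-null pool as a percentage of the wild-type pool of the same strain and sample number, for Itln1 and Mptx1, with a dashed line at the wild-type level. All 8 bars lie under 100%, from 16.6% for Itln1 between the sample 1 pools of C3H/HeJBir to 93.9% for Mptx1 between the sample 2 pools of C3H/HeJBir. The sample 1 pools of the 2 genotypes were hybridised on different days, and the sample 2 pools on the same day.

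In C57BL/6J the log2 difference, Il10-null minus wild type, was -0.37 ± 0.53 (SE) for Itln1, with a 95% interval of -1.58 to 0.84 (limma adjusted p = 1.00). For Mptx1 it was -0.29 ± 0.34, with an interval of -1.07 to 0.48 (adjusted p = 1.00). These limma intervals rest on a spread shared by all 4 groups, which the C3H/HeJBir Il10-null pair dominates. In a fit of the C57BL/6J groups alone the differences were the same with an SE of 0.21 for Itln1 and 0.22 for Mptx1, and neither passed (limma adjusted p = 1.00 for each). Among all probe sets 0 of 7453 passed in this comparison (0%), 118 had an unadjusted p under 0.05, and the smallest limma adjusted p was 0.102.

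In C3H/HeJBir the difference was larger for both genes and rested mainly on 1 pool. For Itln1 it was -1.68 ± 0.53, with a 95% interval of -2.89 to -0.47, an unadjusted p of 0.0123 and a limma adjusted p of 0.999. For Mptx1 it was -0.66 ± 0.34, with an interval of -1.44 to 0.11 (limma adjusted p = 0.999). Without sample 1 of C3H/HeJBir Il10-null the difference was -0.71 for Itln1 and -0.13 for Mptx1. Without the sample 2 pool of that group it was -2.66 for Itln1, which passed the test (limma adjusted p = 0.0406), and -1.20 for Mptx1, which did not (adjusted p = 0.187). In those fits the remaining pool is taken to vary like the other groups. Over all alternatives tested the adjusted p of Itln1 ran from 0.0406 to 1.00. In this comparison 1 of 7453 probe sets passed (0.0134%), a probe set of the RNA gene Gas5, which was higher in Il10-null. The brightest Gas5 probe set read 86.4 and 120 in C3H/HeJBir wild type and 855 and 1440 in C3H/HeJBir Il10-null. In the C57BL/6J pools it read 998 to 1362. A part of sequence linked to the allele in this was not tested. Gas5 lies between Il10 and Itln1 in the gene order of chromosome 1.

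The Il10 effect of C3H/HeJBir minus that of C57BL/6J asked whether the effects of the strains were unequal. It was -1.31 ± 0.75 for Itln1, with an interval of -3.02 to 0.40 (limma adjusted p = 1.00). For Mptx1 it was -0.37 ± 0.48, with an interval of -1.47 to 0.73 (adjusted p = 1.00). The Il10 effects of the strains were therefore not shown to differ for either gene, and the intervals are wide. Without sample 1 of C3H/HeJBir Il10-null the values were -0.34 for Itln1 and 0.17 for Mptx1, so the sign turned for Mptx1. No probe set passed in this comparison (0 of 7453, 0%), and 112 had an unadjusted p under 0.05 in limma. Between the sample 2 pools, hybridised on the same day, the Il10 difference was -0.45 in C57BL/6J and -0.82 in C3H/HeJBir for Itln1, and -0.26 and -0.09 for Mptx1.

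The strain part of the joint pattern was seen for 199 of 7453 probe sets (2.67%), and the genotype part for 148 (1.99%). All C3H/HeJBir pools above all C57BL/6J pools, with the Il10-null pools below wild type in both strains, was seen for 7 of 7453 probe sets (0.0939%). These were Itln1, Mptx1, Ppy, which encodes pancreatic polypeptide, a probe set of Igha, the heavy chain of immunoglobulin A, Adh1, Tnpo2 and Snrnp40. The strain part of that pattern was known for Itln1 and Mptx1 when they were chosen. The small share of the joint pattern is therefore not read as a trait of the 2 genes.

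Sample 1 of C3H/HeJBir Il10-null stood somewhat apart from the rest. Its mean Spearman correlation with the 7 other pools over probe sets was 0.915, against 0.931 to 0.945 for the others, while median intensities ran from 50.1 to 62.2 over the 8 arrays. The probe set of Il10 did not pass the filter and read 5.43 to 10.9 in the wild-type pools and 22.0 to 51.7 in the Il10-null pools. No source used here says whether these probes fall in the part that the allele alters, so they do not check the labels. In total colon, fewer cells of a type and less RNA per cell cannot be told apart.

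Markers of several cell types moved with that pool. Goblet cells, a source of Itln1, were represented by 13 tested markers on the list, including the mucin Muc2 and the trefoil peptide Tff3, and all 13 genes of that list on the array passed the filter. Their median log2 deviation from the mean over pools was -0.25 in sample 1 of C3H/HeJBir Il10-null and -0.07 to 0.14 in the other pools. Their summed intensity was 46917 and 47502 in C57BL/6J wild type, 43718 and 47947 in C57BL/6J Il10-null, 57208 and 53671 in C3H/HeJBir wild type and 47368 and 53102 in C3H/HeJBir Il10-null. Retnlb, which is on that list, read 10942 and 9363 in C3H/HeJBir wild type against 745 and 514 in C57BL/6J wild type. No goblet marker passed in an Il10 comparison (0 of 13). Retnlb was the 1 of 13 that passed in the wild-type strain comparison, against 0.403% of all probe sets. As the marker list was chosen with earlier results of these data known, that share is a description.

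Some other lists also stood at one end of their range in that pool. The median deviation there was -0.55 for 9 enteroendocrine markers (-0.19 to 0.35 in the other pools), -0.53 for 10 smooth muscle markers (-0.22 to 0.26) and -0.51 for 9 fibroblast markers (-0.35 to 0.25). It was 0.50 for 8 Paneth cell and small intestinal markers (-0.38 to 0.19 in the other pools) and 0.57 for 6 neutrophil and macrophage markers (-0.20 to 0.16). For 8 exocrine pancreas markers it was 1.88, but that list varied widely, from -1.03 to 1.21 in the other pools. Its next highest value, 1.21, was in sample 1 of C57BL/6J Il10-null, hybridised on the same day, where Itln1 stood at 78.6% and Mptx1 at 79.5% of wild type. The 6 B cell and plasma cell markers did not set the pool apart, at 0.85 there and 0.83 in each C3H/HeJBir wild-type pool, while sample 2 of C3H/HeJBir Il10-null stood at -0.37. For 12 absorptive colonocyte markers it was -0.005. The part of these values in the lower Itln1 and Mptx1 of that pool was not tested.

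**Figure D3:**
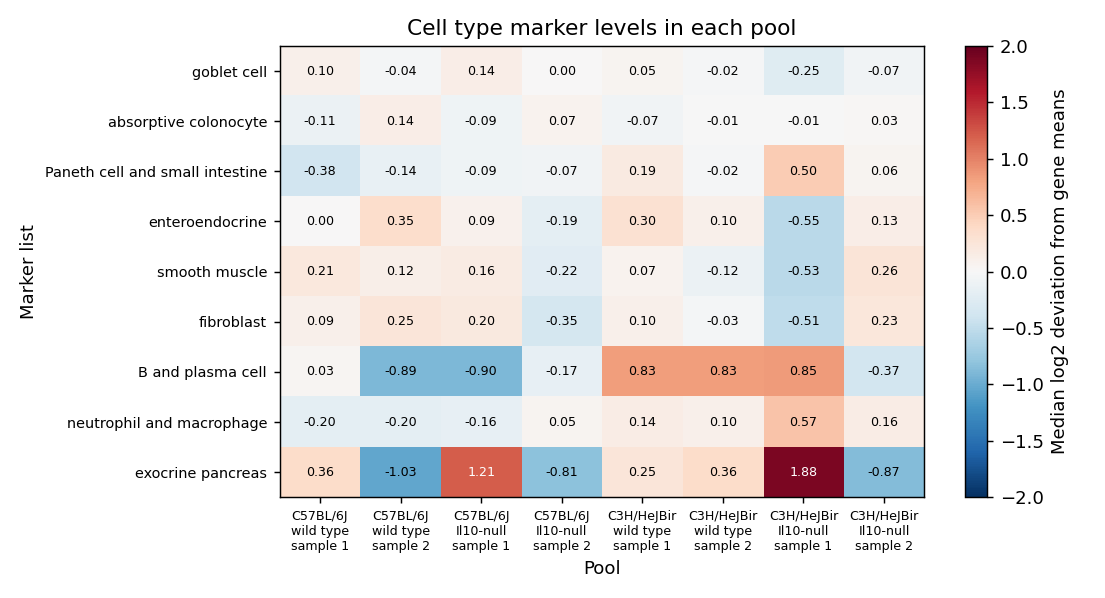
Median log2 deviation from the mean over pools, shown as colour, for each list of cell type markers (rows) in each of the 8 pools (columns), with the value printed in each cell. Sample 1 of C3H/HeJBir Il10-null has the highest exocrine pancreas value, 1.88, and the lowest goblet value, -0.25.

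Other proteins that bind or recognise microbes were taken from a list of 41 genes. The array held 31 and 20 passed the filter, with Itln1 and Mptx1 left out. Earlier results of these data were known when the list was chosen, so its counts are a description. In the Il10 comparisons and their difference 0 of 20 passed, and 1, 2 and 0 of them had an unadjusted p under 0.05 in limma. In each strain comparison 1 of 20 passed, higher in C3H/HeJBir, against 0.215% of all probe sets in wild type and 0.161% in Il10-null. That gene was Cd14, a receptor for bacterial lipopolysaccharide. It read 344 and 341 in C57BL/6J wild type, 1696 and 1881 in C3H/HeJBir wild type, 485 and 556 in C57BL/6J Il10-null and 3829 and 2338 in C3H/HeJBir Il10-null. Its strain difference was 2.34 in wild type (limma adjusted p = 0.00956) and 2.50 in Il10-null (adjusted p = 0.0112). The list's median strain difference was -0.05 in wild type and 0.21 in Il10-null, against -0.02 for all probe sets in both.

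Reg3g, a lectin that kills Gram-positive bacteria, had the largest Il10 difference of that list in C57BL/6J. It read 646 and 1016 in wild type and 2496 and 3915 in Il10-null pools of C57BL/6J, which gave a log2 difference of 1.93 and missed the threshold (limma adjusted p = 1.00). Its direction was the opposite of that of Itln1 and Mptx1. The pentraxin relatives of Mptx1 were dim in every pool and did not pass the filter. The probe set of Crp read 4.17 to 14.9 with a median of 10.8, that of Apcs 0.58 to 31.0 with a median of 4.02, and that of Ptx3 2.96 to 22.8 with a median of 8.91. Itln2 and Mptx2 had no probe set.

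Secreted antimicrobial enzymes and peptides included several genes that were higher in C3H/HeJBir. Of 19 on the list, 11 were on the array and 8 were tested. The list was chosen with earlier results of these data known, so its counts are a description and nothing is read from their shares. In wild type 3 of 8 passed, against 0.215% of all probe sets that passed higher in C3H/HeJBir. In Il10-null 2 of 8 passed, against 0.161%, and all of these calls were higher in C3H/HeJBir. Pla2g2a, a secreted phospholipase that attacks bacterial membranes, was among them in both genotypes, but entered the test only through its C3H/HeJBir pools, so its call supports nothing and no log2 difference is given. It read 44.3 and 6.38 in C57BL/6J wild type, 21.1 and 44.9 in C57BL/6J Il10-null, 2013 and 1172 in C3H/HeJBir wild type and 5446 and 1283 in C3H/HeJBir Il10-null. Retnlb, a goblet cell protein that acts on bacteria, differed by 4.01 in wild type (limma adjusted p = 0.0064) and by 2.06 in Il10-null, which did not pass (adjusted p = 0.136). Slpi, a protease inhibitor of mucosal secretions, differed by 3.89 (limma adjusted p = 0.00517) and 3.80 (adjusted p = 0.00604). Without sample 1 of C3H/HeJBir Il10-null 1 of 8 passed in Il10-null, since Pla2g2a then missed the threshold (limma adjusted p = 0.0664). In the Il10 comparisons 0 of 8 passed, and Retnlb in C57BL/6J, at 745 and 514 in wild type and 1572 and 4033 in Il10-null, gave 2.01 (limma adjusted p = 1.00). Mmp7, the protease that processes Paneth cell defensins, was the 1 of 8 Paneth cell and small intestinal markers that passed between strains, and it too entered the test only through C3H/HeJBir. It read 5.84 to 12.4 in the C57BL/6J pools, around the pseudocount, and 115 to 308 in the C3H/HeJBir pools.

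Genes of the interleukin 4 and interleukin 13 response were described because intelectins are known to follow those cytokines. Of 24 on the list, 18 were on the array and 6 were tested. Like the other lists it was chosen with earlier results known, so its counts are a description. Retnlb was the 1 of 6 that passed, in wild type between strains, against 0.403% of all probe sets. In any other comparison 0 of 6 passed. The list's median strain difference was 0.06 in wild type and 0.34 in Il10-null. Mcpt1, a mast cell protease, differed by -1.01 in wild type and 1.01 in Il10-null, and passed in neither (limma adjusted p = 0.947 and 1.00).

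Mptx1 had the pattern over pools most like that of Itln1. Likeness was the root mean square difference between log2 values over the 8 pools, each minus its own mean, among 6727 probe sets. Mptx1 came first for Itln1 at 0.67, followed by a dimmer probe set of Slpi, Ppy at 1.04, a brighter probe set of Slpi at 1.07 and Tff2, a trefoil peptide, at 1.09. For Mptx1 the order was Ppy at 0.49, Cap1 at 0.59, Ly6g6c at 0.61, Slpi at 0.63 and Ocel1 at 0.63, with Itln1 in place 7 at 0.67. The measure is dominated by the strain difference, which all of these share, and it carries no test. Itln1 and Mptx1 were chosen with that difference known, so their likeness is not read as a trait of the pair. Tff2 read 3.93 to 45.0 in the C57BL/6J pools and passed the filter only through its C3H/HeJBir pools, so its place supports nothing.

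Ppy followed the order of groups seen in Itln1 and Mptx1. It read 162 and 216 in C57BL/6J wild type, 118 and 113 in C57BL/6J Il10-null, 739 and 849 in C3H/HeJBir wild type and 287 and 672 in C3H/HeJBir Il10-null. Its pools fell in the same order of groups, and its sample 1 pool of C3H/HeJBir Il10-null was again the lower of the pair. A second probe set of Ppy gave a wild-type strain difference of 0.72 where the one described gave 2.02. Slpi, read by the dimmer of these, was 85.5 and 110 in C57BL/6J wild type, 75.3 and 122 in C57BL/6J Il10-null, 1133 and 921 in C3H/HeJBir wild type and 1516 and 891 in C3H/HeJBir Il10-null. It differed from Itln1 and Mptx1 in being highest in sample 1 of C3H/HeJBir Il10-null. Its remaining probe sets gave wild-type strain differences of -0.09 and -0.01 where this one gave 3.25 and the brighter one 3.89, so the probe sets of Slpi disagree.

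**Figure D4:**
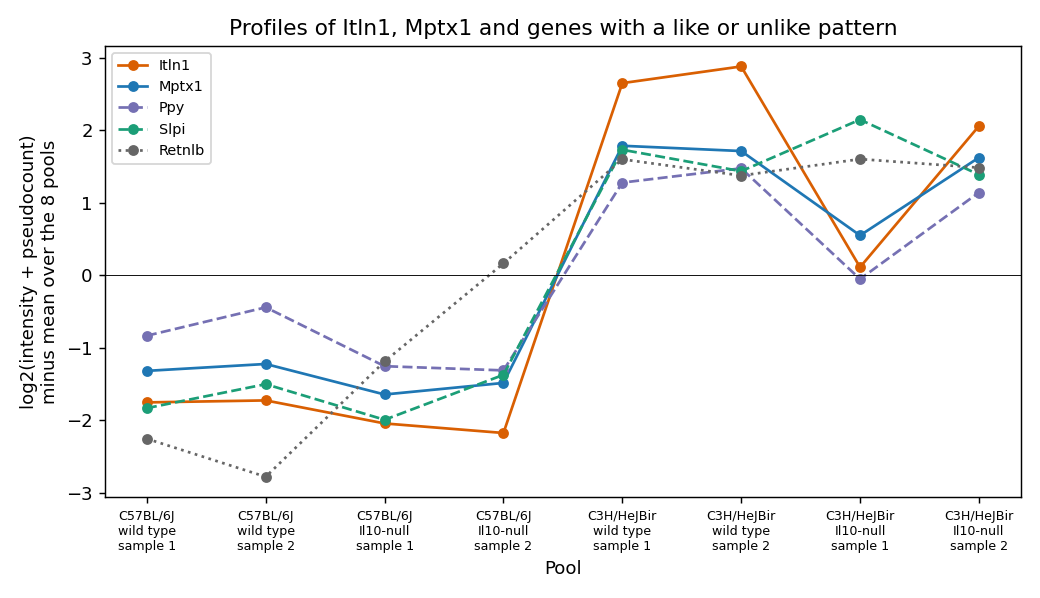
log2(intensity + 11.07) minus its mean over pools for Itln1, Mptx1, Ppy, the dimmer of the like Slpi probe sets and, as an unlike pattern, Retnlb, in each of the 8 pools, with 1 line per probe set. All lines are higher in the C3H/HeJBir wild-type pools than in the C57BL/6J pools, and Itln1 has the larger swing of Itln1 and Mptx1, with a wild-type strain difference of 4.51 against 3.02 for Mptx1.

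The genes beside each member on the chromosome were read to see whether the strain difference extended to them. Of the 25 genes on each side of Itln1, 20 of 50 were on the array and 18 of their probe sets were tested, and 0 of 18 passed in any of the 5 comparisons. Their median strain difference was -0.15 in wild type and -0.05 in Il10-null. Around Mptx1 only 5 of 50 genes were on the array and 3 probe sets were tested, of which 1 passed in each strain comparison. That was Ifi202b, an interferon-inducible gene of the cluster beside Mptx1, 19 places away. It read 5.04 and 0.50 in C57BL/6J wild type, 14.8 and 5.60 in C57BL/6J Il10-null, 69.1 and 77.3 in C3H/HeJBir wild type and 128 and 87.0 in C3H/HeJBir Il10-null. Its C57BL/6J values lay around or below the pseudocount and it entered the test only through C3H/HeJBir, so the call supports nothing and the size of its log2 difference depends on the pseudocount. Ifi204, of the same cluster and with close paralogues that its probes could read, gave 1.29 ± 0.69 in wild type (limma adjusted p = 1.00) and 1.98 ± 0.69 in Il10-null (unadjusted p = 0.0204, adjusted p = 0.702), and passed in neither. Fh1, a mitochondrial enzyme gene, gave 0.19 and 0.12 (limma adjusted p = 1.00 for each). The median strain difference of these 3 probe sets was 1.29 in wild type and 1.98 in Il10-null, which are the values of Ifi204.

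**Figure D5:**
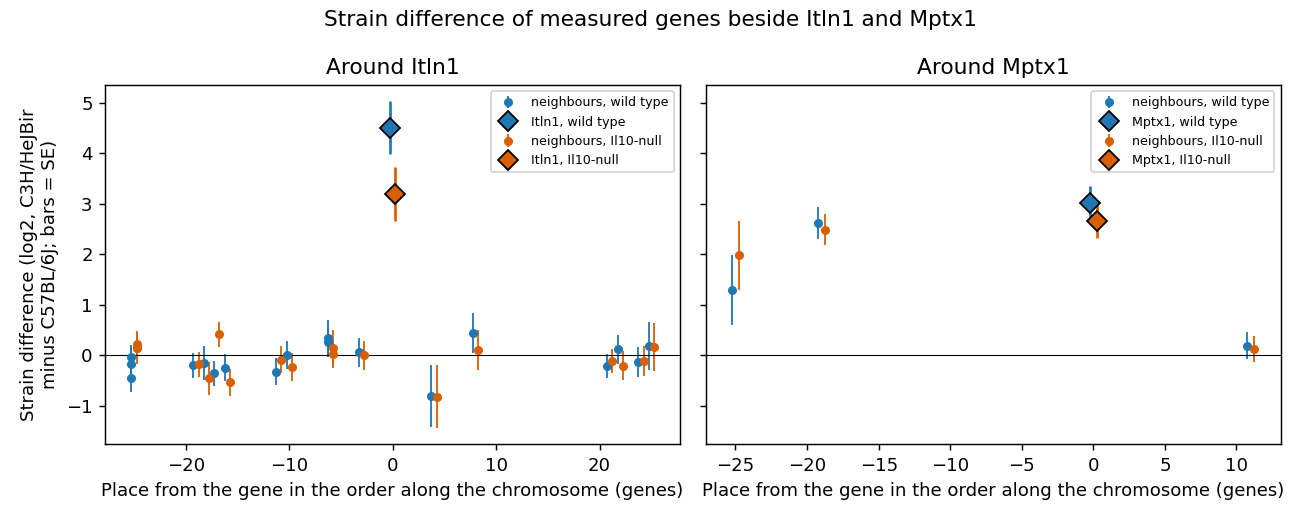
Strain difference (log2, C3H/HeJBir minus C57BL/6J) with its SE of the tested genes on each side of Itln1 (left) and Mptx1 (right), by place in the order along the chromosome, with diamonds for the members. The members stand at 4.51 and 3.02 in wild type, and beside Mptx1 the pair of points 19 places away is Ifi202b, whose height depends on the pseudocount.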

How the data were processed

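RNA of total mouse colon from 8 pools was hybridised to Affymetrix MG_U74Av2 arrays. The deposited values are intensities on a linear scale, 1 per probe set, from 0.03 to 12860, scaled to each other by the authors (trimmed means differed by a ratio of 1.01). No source used here states the summary algorithm or scaling target. Groups came from the labels, and hybridisation days from the experiment files.

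Values were analysed as log2(intensity + 11.07), where 11.07 is the 20th percentile of the intensities. Only probe sets whose mean reached 37.0, the 40th percentile of the means, entered the tests (7453 of 12422). A model of 4 group means was fitted in R 4.3.3 by lmFit and eBayes of limma 3.58.1. Residual degrees of freedom were 4, and prior ones 4.23. Tests were two-sided with Benjamini-Hochberg adjustment over the 7453, and 0.05 was the threshold. The fit was tested on simulated data, in which pools varied independently and with the same spread in all groups. That run therefore does not check the fit for deviations shared by same-numbered pools or for the uneven spread seen here. Gene names came from the platform annotation (10833 probe sets with 1 symbol, 396 with several, 1193 with none), and 10817 were matched to the RefSeq table of GRCm38.p6. Of several probe sets of a gene the brightest was read, and others were given where they disagreed.

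The members and lists were chosen with earlier results of these data known. Named were both members, list genes past the threshold (up to 6) and the 3 with the largest difference, the 5 probe sets most like each member, and called genes among the 25 on each side. Sample 1 pools were hybridised on day 1 (Il10-null) and day 2 (wild type), and every sample 2 pool on day 3. Deviations of same-numbered pools from their group means correlated at 0.198 to 0.332 in the 6 group pairs, all over 0.1, so an alternative took the number as a block. Other alternatives changed the pseudocount, filter, normalization, moderation, groups fitted, day block, threshold and pools.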

Additional observations from a re-analysis of the deposited data

Results flagged for a closer look

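Ly6g6c, among the probe sets most like Mptx1, had its Il10-null pools on opposite sides of wild type in the strains. It read 47.2 and 46.1 in C57BL/6J wild type and 58.0 and 50.4 in C57BL/6J Il10-null, where both Il10-null pools were higher. It read 293 and 247 in C3H/HeJBir wild type and 138 and 155 in C3H/HeJBir Il10-null, where both were lower. The Il10 effect on the log2 scale was 0.17 ± 0.22 (SE) in C57BL/6J, smaller than its SE, and -0.83 ± 0.22 in C3H/HeJBir. The difference between the Il10 effects was -1.01 ± 0.31 (SE), which did not pass (limma adjusted p = 1.00).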

How the results depend on the processing

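With 2 pools in a group and 1 probe set for each gene, the number of arrays limits the precision, and an alternative with another probe set of the same gene was not run. The Il10 effect in C57BL/6J turned sign with the hybridisation day as a block, to 0.0197 for Itln1 and 0.0091 for Mptx1 (limma adjusted p = 1.00 for each), because that fit takes the average Il10 effect from the sample 2 pools alone and the difference between strains from all pools. With only the sample 2 pools, a value with no test, the Il10 effect in C3H/HeJBir was -0.82 for Itln1 and -0.0902 for Mptx1, the difference between strains -0.37 and 0.17, and the strain difference in Il10-null 4.24 and 3.11. Leaving out 1 pool at a time gave -0.44 to -0.30 for Itln1 and -0.37 to -0.21 for Mptx1 in C57BL/6J, -2.66 to -0.71 and -1.20 to -0.13 in C3H/HeJBir, and -2.29 to -0.34 and -0.91 to 0.17 for the difference. The strain difference ran from 4.39 to 4.62 for Itln1 and 2.98 to 3.07 for Mptx1 in wild type, and from 2.22 to 4.17 and 2.12 to 3.19 in Il10-null. The replicate block on the sample number, which pairs the pools, gave -0.37, -1.68 and -1.31 for Itln1 and -0.29, -0.66 and -0.37 for Mptx1, and changed no call of either gene. Probe sets called with that block numbered 0, 1, 0, 31 and 23 in the 5 comparisons.

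Counts of called probe sets moved more. In C57BL/6J the count went from 0 to 1 with a pseudocount at the 50th percentile, a filter at the 60th percentile, or trend and robust moderation. In C3H/HeJBir it went from 1 to 0 with a pseudocount at the 5th percentile, no filter, median scaling, the day block or a fit of only the groups compared. The wild-type strain count of 30 became 53 with the pseudocount at the 50th percentile, 51 with trend and robust moderation, 49 with only the groups compared and 46 at a threshold of 0.1. The Il10-null strain count of 22 became 45 with that pseudocount, 14 with no filter, 45 with trend and robust moderation, 6 with the day block, 12 with only the groups compared and 44 at a threshold of 0.1. The cause of these moves was not tested. Without 1 pool the counts were 0 to 0, 0 to 7, 0 to 0, 2 to 39 and 4 to 34 in the 5 comparisons. For the gene lists, the alternative that leaves out C3H/HeJBir Il10-null sample 1 was chosen after seeing the data.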
